A study of Rattus norvegicus with 20 samples.

Results

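The import genes described here carry the symbols *Timm*, *Tomm* or *Chchd*, the names given to subunits of the mitochondrial protein import complexes and to their small cysteine-motif relatives. The choice went by symbol alone. Some members therefore have other roles, such as *Chchd6*, a subunit of a cristae-organising complex, and *Timmdc1*, a complex I assembly factor. Of 31038 symbols, 34 matched, and 29 of these reached 5 reads in 10 or more of the 20 libraries and were kept among 16605 genes. They were measured by poly(A) RNA-seq in the medial prefrontal cortex (mPFC) of male Sprague-Dawley rats. There were 10 LSD-treated rats, which received 0.16 mg/kg of lysergic acid diethylamide (LSD) intraperitoneally on alternate days for 90 days, and 10 controls given saline in the same way. Treatment began at 6 to 8 weeks of age and tissue was taken about 3 weeks after the last injection, per the labels, while the study's methods give a slightly higher age and a longer interval. Each library came from 1 animal, and the tissue was a mixture of cell types from 1 hemisphere.

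Most mitochondrial proteins are made in the cytosol from nuclear genes and are imported through the outer membrane by the TOM complex, whose pore is Tomm40. Proteins with a cleavable presequence then pass to the TIM23 complex in the inner membrane, carrier proteins are handed by small TIM chaperones to TIM22, and many intermembrane space proteins are trapped by oxidative folding through Chchd4. In neurons the pathway supplies mitochondria along axons and dendrites as well as in the cell body.

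The promoters of nuclear genes for mitochondrial proteins are known for sites of nuclear respiratory factor 1 (NRF-1) and of ETS factors such as GABP. RefSeq promoters (300 bases around the start, most of them before it, GRCr8) were found for 26 of the 29 members. The NRF-1 core, a palindrome-like run of 10 bases shown in capitals below and searched on both strands, stood in 4 of these, *Tomm7*, *Tomm20*, *Timm21* and *Chchd4*. That is 15.4%, against 8.79% of the 11605 kept genes with a promoter and 4.25% of all 33469 promoters. The ETS core CCGGAAG stood in 10, or 38.5%, against 14.9% of kept genes and 8.75% of all promoters. These letters are a description of the window and not evidence of binding. 3 promoters are shown because they hold the motifs in members that the results turn on. *Tomm7* and *Chchd5* were lower after LSD, and *Tomm20*, a presequence receptor that was not called, holds both motifs. Capitals mark the motifs.
Tomm7, GRCr8 chr4:12197253-12197552, plus strand: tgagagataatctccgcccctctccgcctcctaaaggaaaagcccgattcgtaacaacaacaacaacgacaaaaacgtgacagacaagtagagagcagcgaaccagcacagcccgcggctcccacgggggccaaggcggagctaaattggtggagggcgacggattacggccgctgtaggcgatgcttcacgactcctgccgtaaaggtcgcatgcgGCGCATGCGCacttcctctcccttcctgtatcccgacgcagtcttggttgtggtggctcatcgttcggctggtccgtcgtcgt
Chchd5, GRCr8 chr3:136814857-136815156, plus strand: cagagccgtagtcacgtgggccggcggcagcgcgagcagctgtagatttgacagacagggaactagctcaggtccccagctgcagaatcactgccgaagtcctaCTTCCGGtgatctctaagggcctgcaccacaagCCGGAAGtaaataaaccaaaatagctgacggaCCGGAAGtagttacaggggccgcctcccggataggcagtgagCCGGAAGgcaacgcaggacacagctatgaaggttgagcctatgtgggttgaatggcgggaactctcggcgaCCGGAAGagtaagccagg
Tomm20, GRCr8 chr19:71832371-71832670, minus strand: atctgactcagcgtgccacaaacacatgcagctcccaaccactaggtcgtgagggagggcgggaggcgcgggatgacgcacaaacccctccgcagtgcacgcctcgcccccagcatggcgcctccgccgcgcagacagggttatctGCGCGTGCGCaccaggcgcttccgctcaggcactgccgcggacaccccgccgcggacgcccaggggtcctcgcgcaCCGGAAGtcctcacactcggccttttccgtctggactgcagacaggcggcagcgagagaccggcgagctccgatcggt
In *Tomm7* the NRF-1 core began 33 bases before the start. *Chchd5* held 5 ETS cores, of which 4 lay before the start and 1 after it. Among the 8 members that were lower after LSD, 1 promoter held the NRF-1 core and 3 held the ETS core.

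Of the 29 import genes, 8 were down-regulated in LSD-treated rats and 0 were up-regulated, at an adjusted p under 0.05. Adjusted p-values are from edgeR (quasi-likelihood test, Benjamini-Hochberg over all kept genes) unless another test is named. That is 27.6% of the members, against 8.54% of all genes called lower and 6.49% called higher. The 8 were *Tomm6*, *Tomm40*, *Tomm7*, *Timm23*, *Timm13*, *Timm10b*, *Chchd5* and *Chchd6*. At an unadjusted p under 0.05, 10 members were lower and 0 higher, against 2719 lower and 2392 higher among all 16605 genes. The log2 fold change was below 0 in 22 of 29 members, against 49.6% of all genes, and its median was -0.09 against 0.00 over all genes. In bulk tissue, fewer cells of a type and less RNA per cell cannot be told apart. The groups overlapped in every member, and 0.193% of all genes had groups that did not overlap.

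**Figure D1:**
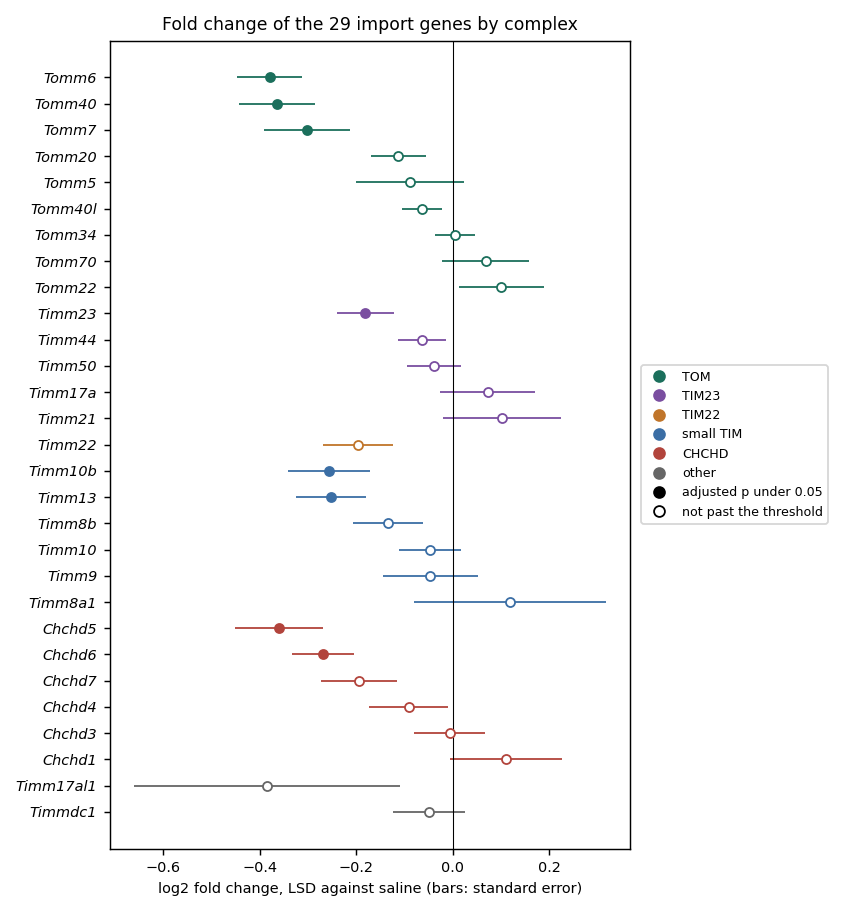
The log2 fold change (LSD against saline, x axis) of each of the 29 import genes is plotted with its standard error, coloured by complex, with filled points for an adjusted p under 0.05. The 8 filled points all lie to the left of 0, between -0.38 and -0.18, and no complex has a filled point to the right.

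The genes named *Tomm* numbered 9, subunits of the TOM complex and 2 relatives, of which 3 fell and 6 did not pass the test. *Tomm6* and *Tomm7*, small subunits that bind around the pore, and *Tomm40*, the pore itself, were the members called. Levels are given as normalised RPM, in which reads are scaled to a common library total with TMM factors, and are not corrected for gene length.

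In *Tomm6* the LSD-treated rats ranged from 62.1 to 79.4 (median 67.8) and the controls from 75.2 to 114 (median 84.5). LSD rat 1 alone reached the range of the controls, and the other 9 LSD-treated rats lay below every control. The level fell by 23.1%, a log2 fold change of -0.38 (SE 0.067, adjusted p = 0.00358). *Tomm40* ranged from 99.7 to 135 (median 105) after LSD and from 109 to 168 (median 142) in controls. All 10 LSD-treated rats were below the median of the controls and 6 were below the lowest control, with LSD rat 1 again the highest of its group. Its log2 fold change was -0.37 (SE 0.079, adjusted p = 0.00722). *Tomm7* ranged from 28.0 to 42.3 (median 34.8) after LSD and from 37.2 to 59.0 (median 41.7) in controls, with a log2 fold change of -0.30 (SE 0.088, adjusted p = 0.0255). In this gene 5 LSD-treated rats lay below every control, whereas LSD rat 1 and LSD rats 7 to 10 lay within the range of the controls. RefSeq lists 4 pseudogenes named after *Tomm7*, so that its reads could be shared.

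Neither of the main presequence receptors was called. *Tomm20*, which binds presequences, ranged from 74.5 to 92.8 (median 84.5) after LSD and from 80.2 to 103 (median 91.8) in controls, a log2 difference of -0.11 (SE 0.058, adjusted p = 0.189). *Tomm22*, the central receptor, ranged from 30.7 to 42.4 (median 32.3) after LSD and from 27.9 to 43.0 (median 30.7) in controls, a log2 difference of 0.10 (SE 0.088, adjusted p = 0.473). The groups overlapped in both genes, and in *Tomm22* they covered nearly the same range. *Tomm70*, the receptor for carrier precursors, *Tomm5*, *Tomm34*, a cytosolic co-chaperone, and *Tomm40l*, a relative of the pore, had log2 differences from -0.09 to 0.07, with none called. In *Tomm70* no LSD-treated rat was under the median of the controls (36.7 to 42.8 after LSD, and 27.0 to 55.1 with a median of 35.8 in controls).

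**Figure D2:**
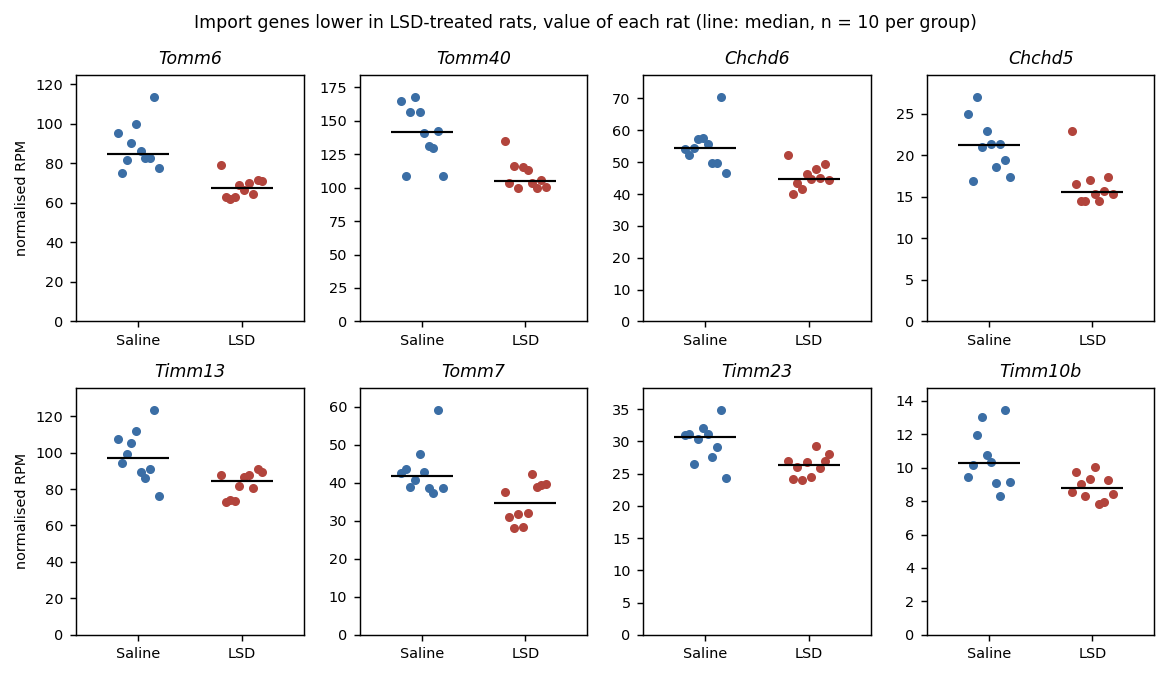
Normalised RPM (y axis, from 0) of the 8 down-regulated import genes in each rat, with saline left, LSD right and a line at each group's median. The *Tomm6* points overlap at 1 LSD-treated rat, and in *Chchd5* and *Tomm40* the same LSD rat 1 stands above its group.

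The TIM23 complex had 5 members and 1 was called. *Timm23*, which forms the presequence channel with *Timm17a*, ranged from 24.0 to 29.3 (median 26.4) after LSD and from 24.3 to 34.8 (median 30.7) in controls. All LSD-treated rats were below the median of the controls, yet only 2 were below the lowest control. The log2 fold change was -0.18 (SE 0.059, adjusted p = 0.0396), the smallest among the called members. RefSeq lists 8 pseudogenes named after *Timm23*, so that reads could be shared between copies. The other 4, *Timm17a*, the receptor *Timm50*, the motor anchor *Timm44* and *Timm21*, which couples TIM23 to the respiratory chain, had log2 differences from -0.06 to 0.10.

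*Timm22*, the channel of the carrier translocase, ranged from 20.5 to 29.1 (median 25.7) after LSD and from 24.7 to 38.1 (median 29.1) in controls. The log2 difference was -0.20 (SE 0.072, adjusted p = 0.0657), just outside the threshold, although all 10 LSD-treated rats lay below the median of the controls. It passed in 4 of 14 alternatives, the library total as a covariate among them, and in 2 of 20 fits that left out a library. It did not pass with span offsets (adjusted p = 0.202), with library totals only (0.201) or in the smaller libraries alone (0.0942).

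The small TIM chaperones shield hydrophobic precursors in the intermembrane space, and 2 of 6 fell. *Timm13*, the partner of the Timm8 proteins, ranged from 73.1 to 91.2 (median 84.3) after LSD and from 76.4 to 123 (median 96.8) in controls. Its log2 fold change was -0.25 (SE 0.072, adjusted p = 0.0236), with 3 LSD-treated rats below every control and 6 controls above every LSD-treated rat. *Timm10b*, a chaperone bound to TIM22, ranged from 7.85 to 10.02 (median 8.79) after LSD and from 8.29 to 13.4 (median 10.3) in controls, with a log2 fold change of -0.26 (SE 0.085, adjusted p = 0.0446). All 10 LSD-treated rats lay below the median of the controls, although the ranges overlapped widely. *Timm8b*, *Timm9*, *Timm10* and *Timm8a1* were not called and had log2 differences from -0.13 to 0.12.

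The CHCHD genes code for proteins with paired cysteine motifs, many of them substrates of the Chchd4 disulfide relay, and 2 of 6 fell. *Chchd5* ranged from 14.5 to 22.9 (median 15.6) after LSD and from 16.9 to 27.0 (median 21.2) in controls. LSD rat 1 was far above the other 9 LSD-treated rats, of which 7 were below every control. The log2 fold change was -0.36 (SE 0.091, adjusted p = 0.0135). *Chchd6*, a subunit of the cristae-organising MICOS complex, ranged from 39.9 to 52.2 (median 44.8) after LSD and from 46.5 to 70.5 (median 54.3) in controls, with a log2 fold change of -0.27 (SE 0.064, adjusted p = 0.0100). Here 7 LSD-treated rats lay below every control, and saline rat 9 was the highest of all. RefSeq lists 2 pseudogenes that overlap this gene. *Chchd3*, the other MICOS subunit in the family, had a log2 difference of -0.01 (adjusted p = 0.967).

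*Chchd4*, the oxidoreductase that receives the substrates of the relay, ranged from 7.61 to 11.3 (median 9.51) after LSD and from 8.29 to 12.3 (median 10.3) in controls, with a log2 difference of -0.09 (SE 0.082, adjusted p = 0.483). *Chchd7* ranged from 7.58 to 10.4 (median 9.09) after LSD and from 8.40 to 12.5 (median 10.1) in controls, with a log2 difference of -0.19 (SE 0.079, adjusted p = 0.0951). Both groups overlapped in these genes. *Chchd1*, a mitoribosomal protein, had a log2 difference of 0.11 (adjusted p = 0.564). Of the 2 members outside these complexes, *Timmdc1*, a complex I assembly factor, was not called, and *Timm17al1*, a RefSeq pseudogene with 2 to 11 reads per library, had a log2 difference of -0.39 with an SE of 0.28 (adjusted p = 0.363).

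5 further symbols did not reach the read minimum. *Chchd2* and *Timm17b* had 0 reads in all 20 libraries, *Timm8a2* had at most 3 and *Tomm20l* at most 4. *Chchd10* had 24 reads in all, of which 15 came from LSD rat 1. As *Chchd2* and *Timm17b* are ordinarily expressed in brain and RefSeq lists 6 pseudogenes named after *Chchd2*, the 0 says only that no read was assigned to these symbols.

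Summed over the 29 members, the normalised RPM averaged 1062 ± 52.4 after LSD (SD, n = 10) against 1177 ± 98.0 for saline (SD, n = 10). The controls ranged from 1038 to 1403, with saline rat 9 the highest, and the LSD-treated rats from 979 to 1124. The groups therefore overlapped in the lower part of the range of the controls.

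Library size differed between the groups, from 16346629 to 25552681 reads on genes (median 20271086) after LSD and from 11098076 to 24201351 (median 16815424) in controls. LSD rats 7 to 10 and saline rat 2 had 22000000 reads or more. Within the LSD group, all 4 of these rats lay above the other 6 in 9 of 29 members (31.0%, against 7.67% of all genes), namely *Tomm5*, *Tomm7*, *Tomm20*, *Tomm22*, *Timm8a1*, *Timm8b*, *Timm17a*, *Timm21* and *Chchd3*. In *Tomm22* they had 37.5 to 42.4 normalised RPM and the other 6 had 30.7 to 32.6. In 0 members were the 4 rats all below the other 6, against 7.1% of all genes. Saline rat 9, with 19805283 reads, was as high in *Tomm22* (43.0), *Timm8a1* (8.81) and *Chchd3* (51.6) as the largest libraries. What sets these rats apart was not tested, and the labels give no batch.

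Of 58 relations between a member and the log2 library total within a group, 15 passed the test. The share over all genes was not computed, so this count does not mark the import genes out. Past the threshold in both groups, 4 members were positively related to it, namely *Tomm22*, *Timm21*, *Timm8a1* and *Chchd3*, and 1 negatively, *Tomm40*. No coefficient is given for *Tomm22*, *Timm8a1* and *Chchd3*, since the rats just named stand apart in them. In *Timm21*, LSD rats 7 to 10 also lay above the other 6 (9.96 to 12.7 against 7.14 to 9.64 normalised RPM). Saline rat 2 (12.4) likewise lay above the other controls (at most 9.80). The *Timm21* coefficients therefore include that split. For *Timm21*, Pearson's r was 0.85 in LSD-treated rats (permutation test, two-sided, adjusted p = 0.0165) and 0.90 in controls (permutation, adjusted p = 0.0141), with Spearman's rho 0.90 (permutation, adjusted p = 0.0170) and 0.81 (permutation, adjusted p = 0.0422), and without the 2 farthest libraries r was 0.72 and 0.77.

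The level of *Tomm40* was inversely related to library size by Pearson's r in both groups, while the rank correlation did not pass the test in either. Pearson's r with the log2 library total was -0.73 in LSD-treated rats (permutation test, two-sided, adjusted p = 0.0487 over 58 relations) with Spearman's rho -0.50 (permutation, adjusted p = 0.250), and r was -0.55 without the 2 libraries farthest from the median. In controls r was -0.77 (permutation, adjusted p = 0.0448) with rho -0.76 (permutation, adjusted p = 0.0641), and r was -0.76 without the 2 farthest. *Tomm6* had an r of -0.16 in LSD-treated rats (permutation, adjusted p = 0.782) and -0.37 in controls (permutation, adjusted p = 0.451), with rho 0.05 (permutation, adjusted p = 0.940) and -0.36 (permutation, adjusted p = 0.506). Without the 2 farthest libraries its r was 0.36 and 0.21.

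**Figure D3:**
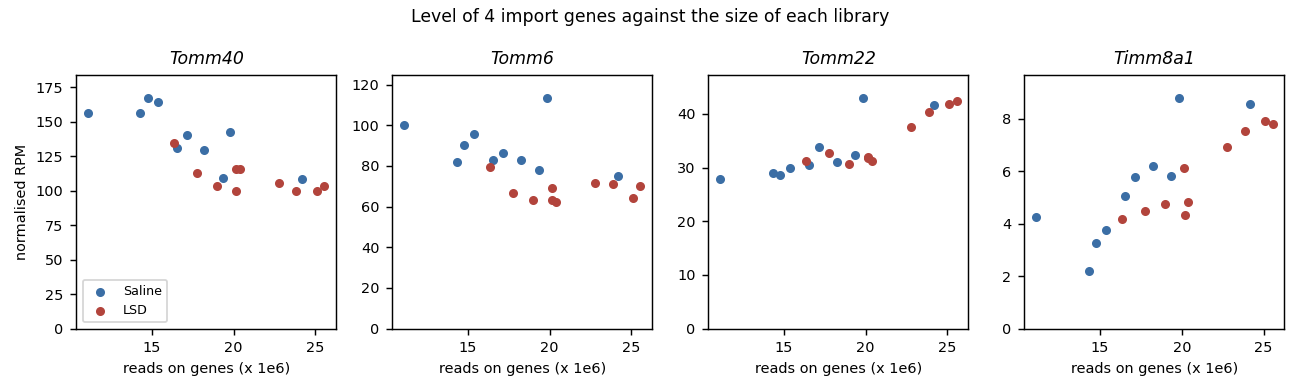
Normalised RPM (y axis, from 0) of *Tomm40*, *Tomm6*, *Tomm22* and *Timm8a1* against the reads on genes of each library (x axis, in units of 1e6) for each rat, saline blue and LSD red. *Tomm40* tends to be lower in larger libraries in both groups, although its rank correlation did not pass the test in either. *Tomm22* and *Timm8a1* rise at the largest libraries and in saline rat 9, and in *Tomm6* the LSD points lie under the saline points at like library size.

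With the library total as a covariate, an alternative chosen after the data were seen, 4 members were lower and 0 higher, against 3.85% of all genes lower and 3.22% higher. These were *Tomm7* (log2 fold change -0.37, adjusted p = 0.0361), *Tomm6* (-0.33, adjusted p = 0.0248), *Timm22* (-0.29, adjusted p = 0.0329) and *Chchd6* (-0.26, adjusted p = 0.0409). The values of *Tomm40* and *Chchd5* shrank to -0.19 each (SE 0.065 and 0.084, adjusted p = 0.0725 and 0.154). The log2 fold change was below 0 in 28 of 29 members, against 52.5% of all genes, and the median was -0.16. *Timm17al1* was the exception.

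Among the libraries under 22000000 reads alone, 6 LSD-treated rats and 9 controls, 5 members were lower and 0 higher, against 2.96% of all genes lower and 2.71% higher. They were *Tomm7* (log2 fold change -0.44, adjusted p = 0.0256), *Tomm6* (-0.41, adjusted p = 0.0193), *Tomm40* (-0.33, adjusted p = 0.0381), *Timm13* (-0.30, adjusted p = 0.0483) and *Chchd6* (-0.29, adjusted p = 0.0400) in edgeR. *Tomm6* and *Chchd6* were therefore called in all 14 alternatives tried on all genes and when each of the 20 libraries was left out. *Timm10b* kept its call in 6 and *Timm23* in 9 of the 20 fits that left out a library.

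Gene span, the genomic length from start to end, moved with the groups as well. With genes sorted by span into 50 bins, the log2 level of the 10 longest bins relative to the 10 shortest ranged from 0.03 to 0.14 (median 0.09) in LSD-treated rats and from -0.38 to 0.06 (median -0.06) in controls, with saline rat 9 the lowest. The members had a median span of 6842 bases against 24514 over all genes with a span, and *Chchd6*, at 220701 bases, and *Chchd3*, at 256512, were the longest. With each rat's trend along span removed, 5 members were lower and 0 higher, against 6.87% of all genes lower and 3.3% higher, namely *Chchd6* (log2 fold change -0.40), *Tomm40* (-0.33), *Tomm6* (-0.29), *Chchd5* (-0.29) and *Timm23* (-0.18). The value of *Timm13* then was -0.16 (adjusted p = 0.0726). With both the library total and span in the fit, 5 members were lower and 0 higher, against 3.43% of all genes lower and 1.65% higher, and these were *Chchd6* (-0.41), *Tomm7* (-0.32), *Chchd3* (-0.31), *Tomm6* (-0.26) and *Timm22* (-0.24). Scaled by library totals only, 4 members were lower and 0 higher, against 5.17% of all genes lower and 9.04% higher. DESeq2 called 9 lower, adding *Timm22*, and 0 higher, against 11.2% and 8.75% of the 15317 genes to which it gave an adjusted p. It gave none to *Timm17al1*.

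**Figure D4:**
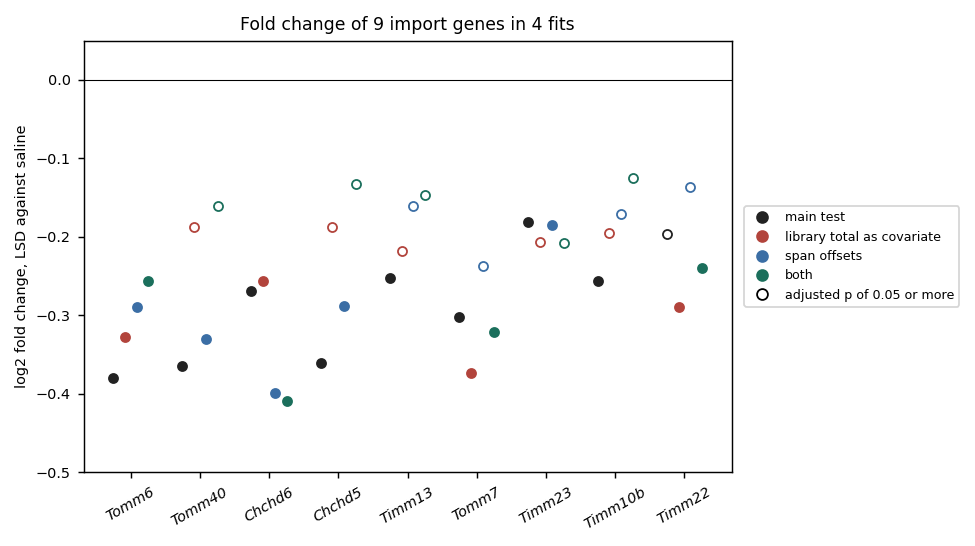
The log2 fold change (y axis) of the 8 down-regulated members and *Timm22* in the main test, with the library total as a covariate, with span offsets, and with both, where filled points have an adjusted p under 0.05. Every value lies below 0, *Tomm6* and *Chchd6* are filled in all 4 fits, and *Tomm40* and *Chchd5* move from -0.37 and -0.36 to -0.19 once the library total enters.

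Ratios between related members were compared in 4 pairs, since a ratio within a rat is not touched by the scaling of its library. A ratio can still vary with library size. The 2 ratios called below were related to the log2 library total by Pearson's r in both groups (permutation test, adjusted p from 0.00328 to 0.0428). Their rank correlations with it passed in the controls alone. The log2 ratio of *Tomm40* to its relative *Tomm40l* was 0.94 ± 0.16 (SD, n = 10) after LSD against 1.23 ± 0.28 for saline (SD, n = 10), which is a difference of -0.29 (SE 0.10, exact permutation test, two-sided, adjusted p = 0.0222). With the library total in a least squares fit that difference was -0.07 (SE 0.072), and in the libraries under 22000000 reads it was -0.29 (exact permutation test, adjusted p = 0.0523). The log2 ratio of the MICOS subunits *Chchd3* to *Chchd6* was -0.20 ± 0.15 (SD, n = 10) after LSD against -0.47 ± 0.21 for saline (SD, n = 10), which is a difference of 0.27 (SE 0.082, exact permutation test, adjusted p = 0.0204). It was 0.09 (SE 0.060) with the library total and 0.27 (exact permutation test, adjusted p = 0.0360) in the libraries under 22000000 reads. In this ratio 9 of 10 LSD-treated rats exceeded the controls' median. *Timm8a1* to *Timm8b* (difference 0.32, SE 0.19, exact permutation test, adjusted p = 0.134) and the chaperone partners *Timm9* to *Timm10* (0.01, SE 0.083, exact permutation test, adjusted p = 0.908) were not called.

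Of 41 other genes of the import pathway that were kept, 8 were lower and 1 higher, or 19.5% and 2.44%, against 8.54% and 6.49% of all genes. Values below 0 were found in 21 of 41, against 49.6% of all genes. The genes that fell were of several kinds. *Mtch1*, an insertase of the outer membrane, ranged from 683 to 891 normalised RPM (median 727) after LSD and from 758 to 1089 (median 977) in controls, with a log2 fold change of -0.35 (SE 0.070, adjusted p = 0.00566). *Samm50*, the core of the complex that inserts barrel proteins such as Tomm40, ranged from 79.9 to 93.9 (median 85.9) after LSD and from 85.2 to 113 (median 98.0) in controls, a log2 fold change of -0.17 (SE 0.051, adjusted p = 0.0295). All 10 LSD-treated rats were below the median of the controls in both.

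*Gfer*, the oxidase that recharges Chchd4, ranged from 6.43 to 7.49 (median 6.83) after LSD and from 6.29 to 9.56 (median 8.31) in controls, a log2 fold change of -0.24 (SE 0.077, adjusted p = 0.0378). The lowest control lay below all LSD-treated rats. The cysteine-motif assembly factors of cytochrome oxidase *Coa6* (log2 fold change -0.55, SE 0.12, adjusted p = 0.00854) and *Cox19* (-0.20, SE 0.046, adjusted p = 0.00854) also fell, each with all 10 LSD-treated rats below the controls' median. *Dnajc19*, a co-chaperone of the import motor, fell by 0.26 on the log2 scale (SE 0.076, adjusted p = 0.0262). *Oxa1l*, the inner membrane insertase (-0.16, SE 0.055, adjusted p = 0.0455), and *Pink1*, the kinase that marks mitochondria with failed import (-0.15, SE 0.048, adjusted p = 0.0446), were close to the threshold. With the library total as a covariate, *Mtch1* (log2 fold change -0.22, adjusted p = 0.0407) and *Cox19* (-0.18, adjusted p = 0.0421) were the genes of these 8 that passed, and *Coa6* was at -0.28 (adjusted p = 0.120). In that fit 6 genes of the list were lower and 0 higher, against 3.85% of all genes lower and 3.22% higher. The other 4 were *Pam16* (-0.30, adjusted p = 0.0469) and *Dnajc15* (-0.27, adjusted p = 0.0361) of the import motor, the chaperonin partner *Hspe1* (-0.24, adjusted p = 0.0483) and the MICOS subunit *Minos1* (-0.26, adjusted p = 0.0407).

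*Hspa9*, the matrix Hsp70 that pulls precursors through TIM23, was the only gene of this list that was up-regulated. It ranged from 78.8 to 92.5 normalised RPM (median 82.7) after LSD and from 65.0 to 85.9 (median 73.3) in controls, a log2 fold change of 0.18 (SE 0.051, adjusted p = 0.0209). No LSD-treated rat fell under the controls' median, but with the library total as a covariate the value was 0.08 (adjusted p = 0.217). *Immt*, the core MICOS subunit, had a log2 difference of 0.04 (SE 0.047, adjusted p = 0.625). In the main test, none of the 6 processing peptidases, 4 MICOS genes and 2 cytosolic chaperones of this list was called.

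Other nuclear gene families of the mitochondrion also held genes that fell, against 8.54% of all genes lower and 6.49% higher. Among 72 mitochondrial ribosomal protein genes, 18 were lower (25.0%) and 0 higher, with a median log2 fold change of -0.10. Among 45 complex I subunits, 10 were lower (22.2%) and 0 higher, with a median of -0.14. Their median spans were 6948 and 7637 bases, close to that of the import genes. Whether the shares differ between these families and the import genes was not tested.

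All markers checked were detected, and none of the 34 markers was at 0. Of 7 neuronal markers 1 was called, *Gad2* (log2 fold change 0.23, adjusted p = 0.0368), and of the astrocyte, oligodendrocyte, precursor, microglia and endothelium markers none. The 6 oligodendrocyte markers summed to 2231 to 5758 normalised RPM (median 3851) after LSD and 2194 to 7476 (median 4749) in controls. The 4 markers listed for the neighbouring striatum summed to 123 to 307 (median 149) after LSD and 140 to 427 (median 181) in controls. *Ppp1r1b* had by far the highest mean of the 4, 129 after LSD and 175 in controls, so the sum is not a measure of striatal tissue. None of the 4 passed the test, with log2 differences of -1.06 for *Adora2a*, -0.84 for *Drd2*, -0.61 for *Drd1* and -0.45 for *Ppp1r1b* (adjusted p from 0.0672 to 0.113), and all 6 oligodendrocyte markers had log2 differences below 0, from -0.48 to -0.22. The part of these levels in the import gene results was not tested.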

How the data were processed

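The mPFC transcriptome of 10 LSD-treated and 10 saline rats was analysed. Per the study's methods and the labels, the counts per gene symbol that the authors deposited came from HTSeq, after trimming (TrimGalore) and alignment to rn6 (HISAT2). The versions, annotation and strand setting are not given in the sources used here, so reads of overlapping genes (*Timm8b* with *Nkapd1*, *Timm9* with *Kiaa0586*, *Tomm20* with *Rbm34*, *Tomm34* with *Stk4*, *Tomm40l* with *Nr1i3*) cannot be told apart. 5 rows that name no gene held 25.5 to 29.0% of reads and were left out. The range of library totals is in the report.

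Genes with at least 5 reads in 10 libraries were tested with edgeR 4.0.16 (R 4.3.3, TMM, quasi-likelihood test, Benjamini-Hochberg over 16605 genes, threshold 0.05) with group as the only term. On simulated data for this comparison, 178 of 200 genes changed by 0.5 (log2) were recovered, with 10 false calls among 16479 genes. The changed genes were drawn from the better covered ones, and no trend with library size or span was simulated. The called members changed by less (log2 fold changes from -0.38 to -0.18), so these rates do not carry over to them. Alternatives used DESeq2 1.42.0, sva 3.50.0, other filters and scalings, span offsets (spans matched for 89.9% of kept genes), a replicate block and each library left out. Library total as a covariate, and libraries under 22000000 reads alone, were added after the data were seen. Ratios of members used log2(reads + 0.5) and exact permutation over 184756 splits (5005 for the smaller libraries), adjusted over 4 pairs. Correlations used 100000 permutations, and 58 were computed for the members, besides those of the 4 pairs in each group.

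The members and lists were chosen with earlier results of these data known. Full statistics are given for members past the threshold, for *Tomm20*, *Tomm22*, *Tomm40*, *Timm23*, *Timm22* and *Chchd4*, for the 3 members with the largest change not past the threshold, and for pathway genes past the threshold plus *Hspa9*, *Samm50*, *Gfer* and *Immt*. *Chchd3*, *Chchd1*, *Timm8a1*, *Timm21*, *Tomm70*, *Pam16*, *Dnajc15*, *Hspe1*, *Minos1* and single cell type markers were named after their values were seen. The pairs *Timm17a* and *Timm17b*, and *Chchd2* and *Chchd10*, could not be compared because a gene was under the read minimum. Of 48 symbols in the list of other import genes, 2 were second names, 3 were under the minimum and 2 were not listed.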

Additional observations from a re-analysis of the deposited data

Results flagged for a closer look

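A sample was far from the rest of its group in 11 of the 92 groups of 10 values that were examined, where chance alone gives about 1 in 20. The measure is the gap to the nearest sample divided by the range of the group, compared with Dixon's critical value at the 95% level. LSD rat 1 was the highest of its group in *Chchd5* (0.651), *Tomm40* (0.535), *Mtch1* (0.599), *Oxa1l* (0.527) and *Chchd10* (0.941), the last on 15 reads. This rat also had the smallest library of the LSD group, and its part in these values was not tested.

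Saline rat 9 was the highest of its group in *Chchd6* (0.541), *Timm22* (0.476), *Timm50* (0.560), *Tomm7* (0.521) and the summed level of the members (0.485). It was also the lowest in the level of long relative to short genes (0.480). Without this rat, 6 members were lower in LSD-treated rats. In that fit and in the one without LSD rat 1, in which 7 were lower, *Tomm6*, *Tomm40*, *Tomm7*, *Timm13*, *Chchd5* and *Chchd6* passed the test. The share of all genes called in these fits was not computed.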

How the results depend on the processing

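Of the 29 import genes, 8 were called lower, and between 6 and 9 were when each library was left out in turn, with 0 higher throughout and a median log2 fold change from -0.11 to -0.05. The count was 4 with library totals only, 5 with span offsets, 4 with span offsets and the replicate block, 4 with the library total as a covariate, 5 with that and span offsets, and 5 in libraries under 22000000 reads. Of the other import genes, 3 were lower with library totals only, 3 with no filter on low counts, 5 with reads drawn to the smallest library, 3 with the library total and span offsets and 4 in libraries under 22000000 reads, where 0 were higher, as with the library total alone or with span offsets. Leaving out a library gave 4 to 9 lower and 1 to 2 higher. The share of all genes called was not computed for the fits that left out a library or used the replicate block. It was also not computed with no filter or with reads drawn to the smallest library. The counts in those fits therefore do not mark the import genes out.

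With the library total, the pair differences were -0.070 (*Tomm40* to *Tomm40l*), 0.093 (*Chchd3* to *Chchd6*), -0.069 (*Timm8a1* to *Timm8b*) and -0.10 (*Timm9* to *Timm10*). In libraries under 22000000 reads, *Tomm40* to *Tomm40l* was -0.29, outside the threshold, and *Timm9* to *Timm10* -0.020. Without each library, the last ranged from -0.022 to 0.041.

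Among the members and the pathway genes given with full statistics, those whose log2 fold change turned sign were called in neither fit. With the library total these were *Chchd1* -0.12, *Timm17a* -0.14, *Timm17al1* 0.11, *Timm21* -0.19, *Timm8a1* -0.33, *Tomm22* -0.11, *Tomm34* -0.018, *Tomm70* -0.035 and *Immt* -0.030, and with span offsets added *Chchd1* -0.048, *Timm17a* -0.12, *Timm17al1* 0.17, *Timm21* -0.14, *Timm8a1* -0.27, *Tomm22* -0.053, *Tomm34* -0.0041, *Tomm70* -0.069 and *Immt* -0.067. With span offsets alone they were *Timm10* 0.034, *Timm50* 0.022, *Tomm40l* 0.0052 and *Immt* -0.0068, and with the replicate block added *Timm10* 0.037, *Timm50* 0.027, *Tomm40l* 0.0063 and *Immt* -0.0068. In libraries under 22000000 reads they were *Timm17a* -0.047 and *Timm8a1* -0.073. *Chchd3* was 0.0027 with a filter of 10 reads in 10 samples, 0.0045 with 5 reads in 20 samples, 0.011 with no filter and 0.0049 with the replicate block. Library totals only gave *Chchd3* 0.038 and *Timm50* 0.0049, and reads drawn to the smallest library *Chchd3* 0.013 and *Timm9* 0.011. Without each library *Chchd3* ranged from -0.026 to 0.043, *Timm50* from -0.057 to 0.0072, *Timm9* from -0.074 to 0.030 and *Tomm34* from -0.011 to 0.026. Of all 41 other pathway genes, 15 turned sign with the library total, and 1 of these was called there, *Hspe1* (0.033 to -0.24, adjusted p = 0.0483). The cause of these changes was not tested.

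Same-numbered rats correlated by 0.145 on average (6 of 10 pairs over 0.1, range -0.259 to 0.467) and other rats by -0.0157. Not every pair was over 0.1, and the main test did not treat the rats as pairs. Whether the replicate numbers pair them was not tested. The labels tie no number to a litter or batch, and the replicate block gave 8 members lower, a count without its share over all genes. The replicate block moved *Timm22* past the threshold (adjusted p = 0.0447) and *Timm23* out of it (adjusted p = 0.0699). Low read counts leave *Timm17al1* with a wide error, and the 5 symbols under the read minimum could not be tested.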
